A study of Mus musculus with 3 samples.

Results

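Scara5/Papln cells were a subset of the luminal progenitors of the mouse mammary gland, 1488 of 26845 barcodes in 3 single-cell RNA-seq libraries. A barcode was kept if it had 500 or more genes detected and less than 10% of its UMIs from mitochondrial genes (UMIs are unique molecular identifiers, each marking 1 captured transcript); 26320 cells remained. A cell counted as a luminal progenitor when it held at least 5 UMIs of Csn3, Elf5, Kit and Aldh1a3 together, and at least 3 times the UMIs of the basal genes Krt5, Krt14, Krt17 and Acta2 and of the hormone-responsive genes Prlr, Areg, Pgr, Esr1 and Cited1. Of 8081 such cells, 824 gave 3% or more of their UMIs to the caseins Csn2, Csn1s1 and Csn1s2a and were set aside. Among the 7257 casein-low progenitors, cells with at least 2 of the 5 genes Scara5, Papln, Wisp2, Fut9 and Galnt15 detected were the Scara5/Papln cells, and the other 5769 were their comparators within each library.

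All 3 libraries belong to 1 group without treatment: live epithelial cells of 10-week-old FVB/NJ females, with the number 4 glands of 4 animals pooled. Cells were freed with collagenase and trypsin and sorted after staining with SytoxBlue and for Ter119, CD45, CD31, EpCAM and CD49f. The labels are the same for each library and do not say whether the libraries came from 1 pool or from several, so each p-value speaks only of the variation among these libraries, part or all of which can be technical. The libraries held 18584156 to 30984706 UMIs over 6691 to 11120 barcodes, and pairs of libraries shared 77 to 146 barcode sequences.

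The mammary duct has an inner luminal layer and an outer contractile basal layer. Luminal progenitors, marked by the receptor tyrosine kinase Kit and the ETS transcription factor Elf5, lack the hormone receptors of the hormone-responsive luminal cells and are the source of the alveolar cells that secrete milk. Caseins are the main milk proteins, and low casein transcription also occurs in some progenitors of glands that are not lactating.

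The progenitor label was checked against genes outside the gate. Of 22 listed luminal progenitor genes, 17 were higher in Scara5/Papln cells than in both the basal-gated and the hormone-responsive-gated cells of every library. Wfdc18, a secreted whey acidic protein family member, stood at 4375 ± 2455 CPM (UMIs per 1000000 UMIs of the class, mean ± SD over 3 libraries) in Scara5/Papln cells, against 303 ± 180 in basal-gated and 245 ± 139 in hormone-responsive-gated cells. Ehf, an ETS transcription factor, stood at 392 ± 63.6 CPM against 24.96 ± 3.02 and 33.1 ± 5.50. The listed progenitor genes that were not above both gates in every library were Itga2, Lif, Rasgrf1, Prom2 and Spib. Prom2 stood at 14.4 ± 3.06 CPM against 43.9 ± 11.3 in basal-gated and 274 ± 28.8 in hormone-responsive-gated cells. Rasgrf1 stood at 5.35 ± 5.58 CPM against 1.10 ± 0.253 and 35.5 ± 7.37. None of 22 basal genes was above both other gates in every library, with 33.2 ± 8.10 CPM of the contractile gene Tagln against 1803 ± 714 in basal-gated cells. Among 25 hormone-responsive genes 3 were (Ctsc, Gas6 and Amigo2), while the transcription factor Foxa1 stood at 2.72 ± 2.40 CPM against 426 ± 9.59 in hormone-responsive-gated cells. Other casein-low progenitors had 4914 ± 3033 CPM of Wfdc18 and 434 ± 39.2 CPM of Ehf.

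Scara5/Papln cells were unevenly spread over the libraries. They made up 37.1% of luminal progenitors in library 1 (1196 of 3222 cells, 95% exact Clopper-Pearson interval 35.4 to 38.8%), 6.90% in library 2 (111 of 1608, 5.71 to 8.25%) and 5.57% in library 3 (181 of 3251, 4.80 to 6.41%). Library 1 therefore stood far above the other libraries and held 80.4% of the cells described here. The mean share was 16.5% ± 17.8 (SD, n = 3) with library 1 and 6.24% ± 0.944 (n = 2) without it. These intervals cover counting error only. Library 1 also had more luminal progenitors, 50.8% of kept cells against 18.0% and 29.4%, and hardly any casein-rich ones, 0.155% of luminal progenitors against 22.5% and 14.1%. The part of these differences in the share of Scara5/Papln cells was not tested.

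The share of cells with 2 or more of the 5 genes moved with depth. Median UMIs per cell were 3547.5 in Scara5/Papln cells and 2574 in other casein-low progenitors of library 1, 2806 and 3511 in library 2, and 4283 and 3212 in library 3. The Scara5/Papln cells were thus the deeper class in libraries 1 and 3 and the shallower one in library 2. With each cell thinned to 2000 UMIs and shallower cells left out (137, 31 and 13 Scara5/Papln cells, and 615, 204 and 374 other casein-low cells), the shares of luminal progenitors were 22.2%, 3.19% and 2.11%. The same order of library 1 over the other libraries remained at equal depth.

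Other classes of the same libraries give the background of the rule. Among basal-gated cells 0.714%, 0.207% and 0.203% had 2 or more of the 5 detected, at median depths of 2037, 2203 and 1763 UMIs. Among hormone-responsive-gated cells the shares were 4.22%, 0.575% and 0.571%, at 3330, 3811 and 3302.5 UMIs. Casein-rich progenitors gave 8 of 362 cells (2.21%) in library 2 and 12 of 457 (2.63%) in library 3, and 0 of 5 in library 1, too few cells for a share. At 2000 UMIs the hormone-responsive gate gave 1.97%, 0.117% and 0.265%, and the casein-low progenitors 22.3%, 4.25% and 2.45%. The casein-low share was the higher one in each library at both depths, and both shares were highest in library 1.

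**Figure D1:**
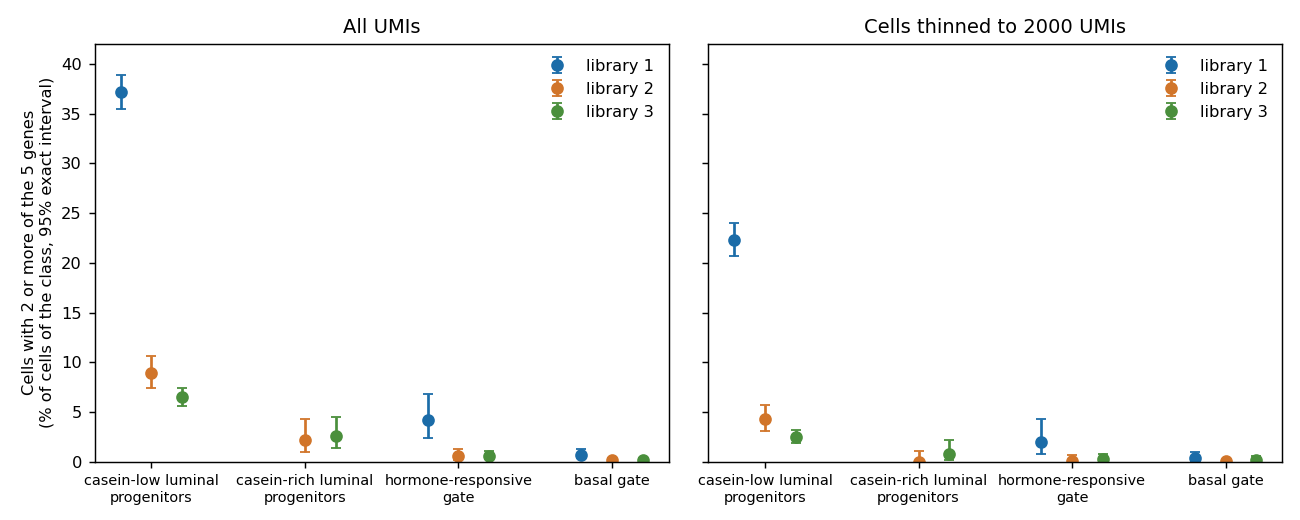
Share of cells with 2 or more of Scara5, Papln, Wisp2, Fut9 and Galnt15 detected (y axis, % of the cells of each class) in casein-low progenitors, casein-rich progenitors, the hormone-responsive gate and the basal gate (x axis), for all UMIs (left) and for cells thinned to 2000 UMIs (right). Points are libraries and bars are 95% exact intervals for counting error; the 5 casein-rich cells of library 1 are left out. Casein-low progenitors of library 1 reach 37.2% on the left and 22.3% on the right, above every other point.

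The 5 genes that chose the cells are described here without a test, because their detection set the classes. Scara5 (chromosome 14, 65666403 to 65764826, plus strand, GRCm38) encodes a scavenger receptor that takes up ferritin. It was detected in 76.0%, 45.9% and 61.3% of Scara5/Papln cells of libraries 1, 2 and 3, at 289, 169 and 145 CPM, against 96.8, 20.1 and 28.6 CPM in the other casein-low progenitors. The comparators of library 1 were the highest of the 3, and all stood below the Scara5/Papln cells. Papln (chromosome 12, 83763634 to 83792382, plus strand) encodes papilin, an extracellular matrix glycoprotein. Its levels were 164, 134 and 43.1 CPM against 37.3, 13.8 and 8.41 CPM, so library 3 was low in both classes. Wisp2 (chromosome 2, 163820861 to 163833146, plus strand), now named Ccn5, encodes a matricellular protein and stood at 220, 297 and 145 CPM against 66.4, 26.2 and 24.7 CPM.

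A pair of glycosyltransferase genes completes the rule. Fut9 (chromosome 4, 25609332 to 25800244, minus strand), which makes the Lewis x sugar epitope, was the least often detected of the 5 in libraries 1 and 2, in 24.1% and 18.0% of Scara5/Papln cells, with 33.1% in library 3. Galnt15 (chromosome 14, 32028989 to 32062197, plus strand), of the family that starts mucin-type O-glycosylation, was detected in 37.9%, 51.4% and 42.5%. Scara5 with Wisp2 was the commonest pair in library 1 (507 cells, 42.4%) and library 3 (52 cells, 28.7%), while Wisp2 with Galnt15 led in library 2 (37 cells, 33.3%). Scara5 with Papln, the pair that names the cells, was found together in 33.9%, 12.6% and 7.73%, so most Scara5/Papln cells of each library lacked this pair.

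**Figure D2:**
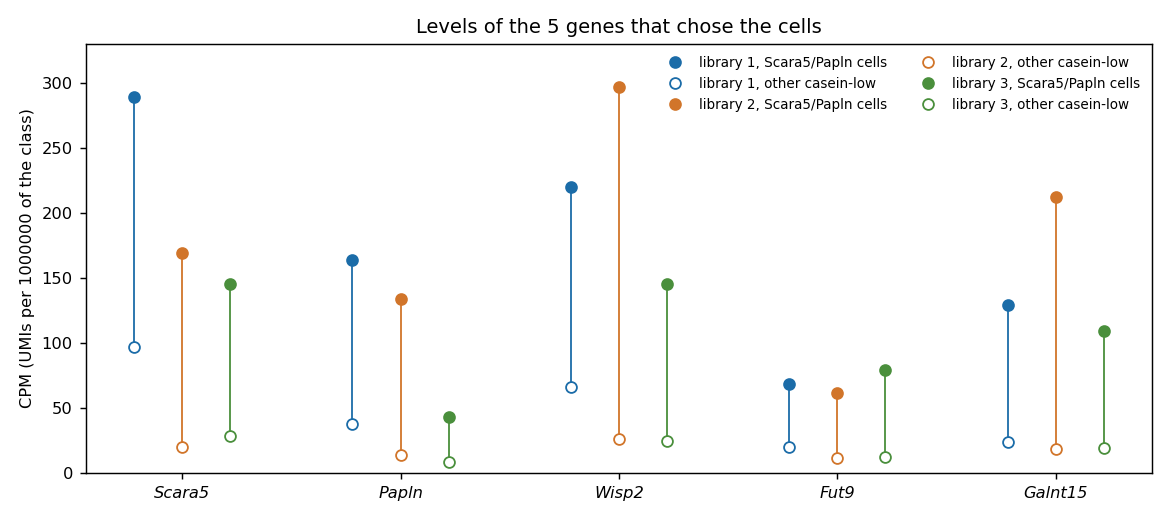
Levels (y axis, CPM, UMIs per 1000000 of the class) of the 5 genes that chose the cells (x axis) in Scara5/Papln cells (filled) and in other casein-low luminal progenitors (open) of each library, joined by a line. Scara5 reaches 289 in library 1, and Papln is at 164 in library 1 and at 43.1 in library 3; the gap between filled and open points follows from the rule.

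The cut between classes fell in a continuous range of counts. Just inside it, cells with exactly 2 of the 5 genes numbered 764, 88 and 156, and just outside, cells with exactly 1 numbered 1082, 322 and 747. Cells with none numbered 939, 813 and 1866. All 5 genes were detected in 13 cells of library 1 and in 0 cells of libraries 2 and 3, and the 13 had a median of 8873 UMIs. A rule of at least 3 genes would have left 13.4%, 1.43% and 0.769% of luminal progenitors.

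Each of the 5 genes was also read in cells chosen by the other 4, which its own counts did not enter. Casein-low cells with at least 2 of the other 4 genes had 1.30, 2.37 and 1.59 times the Scara5 CPM of the remaining cells in libraries 1, 2 and 3. The ratios were 1.32, 2.77 and 1.08 for Papln, 1.27, 4.25 and 1.41 for Wisp2, and 1.34, 3.70 and 1.78 for Galnt15. Fut9 differed from these, with 0.936, 1.36 and 0.860. Levels of 4 of the 5 genes were thus above those of the remaining cells in every library, most in library 2, while Fut9 was lower in libraries 1 and 3. These ratios have no test and rest on 669, 75 and 91 chosen cells in the case of Scara5. The 5 genes were chosen together on these same cells, so the ratios describe that choice and are not independent of it.

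Promoter sequence is shown for 2 of the genes that chose the cells and for Ltf, the gene with the smallest adjusted p below, because these transcripts were high in the same cells. RefSeq (GRCm38.p6) gave promoters for 19 of the 27 genes that chose the cells or passed the test. The 250 bases before the start site were searched on both strands for an ETS core (AGGAAG, the class of Elf5), a STAT site (TTCNNNGAA) and an AP-1 site (TGANTCA). Matches are in capitals, 5′ to 3′ on the gene's strand.
Papln, chr12:83763384-83763633, plus strand: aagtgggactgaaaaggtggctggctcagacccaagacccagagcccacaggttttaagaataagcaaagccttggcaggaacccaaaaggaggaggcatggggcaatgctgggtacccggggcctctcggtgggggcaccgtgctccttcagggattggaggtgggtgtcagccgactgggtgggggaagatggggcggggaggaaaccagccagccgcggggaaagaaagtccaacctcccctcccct
Galnt15, chr14:32028853-32029102, plus strand: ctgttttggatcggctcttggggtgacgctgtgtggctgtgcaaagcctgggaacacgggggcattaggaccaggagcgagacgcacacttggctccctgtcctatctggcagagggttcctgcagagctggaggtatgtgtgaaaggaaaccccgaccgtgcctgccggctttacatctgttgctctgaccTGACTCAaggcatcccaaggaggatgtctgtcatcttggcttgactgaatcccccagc
Ltf, chr9:111019042-111019291, plus strand: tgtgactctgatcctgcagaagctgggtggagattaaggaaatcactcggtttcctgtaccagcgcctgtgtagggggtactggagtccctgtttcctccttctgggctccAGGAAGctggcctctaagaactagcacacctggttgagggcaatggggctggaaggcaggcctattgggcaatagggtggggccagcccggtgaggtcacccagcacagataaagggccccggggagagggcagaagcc
Papln had no match, Galnt15 had an AP-1 match beginning 58 bases before the start, and Ltf had an ETS match beginning 139 bases before it. Over all 32851 promoters of this length, 29.5% held the ETS core, 7.02% the STAT site and 6.75% the AP-1 site. Among the 19 genes, 4, 1 and 3 held them in at least 1 promoter.

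To ask what else the cells carried, raw UMIs were summed per library over Scara5/Papln cells and over other casein-low progenitors and compared within libraries with edgeR's quasi-likelihood test. Of 11699 genes tested, 22 passed an adjusted p of 0.05 (Benjamini-Hochberg) with a log2 fold change of 0.5 or more in either direction, which is 0.188%. Scara5/Papln cells had more of 14 genes (0.12%), among them genes of secreted, matrix and cell-surface proteins, and less of 8 (0.0684%), among them DNA replication, fatty acid and metallothionein genes. All 22 differed in 1 direction in all 3 libraries. Over all genes tested, 13.6% were higher and 18.4% lower in all 3 libraries. The 21 genes that chose cells were not tested, and the UMIs tested came from the cells that the rule sorted. The median log2 fold change of all genes tested was -0.01, and 867 genes had an unadjusted p below 0.05.

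Lactoferrin, the iron-binding defence protein of milk and other secretions, had the smallest adjusted p. Ltf (chromosome 9, 111019271 to 111042767, plus strand) stood at 1841, 2055 and 1290 CPM in Scara5/Papln cells of libraries 1, 2 and 3 and at 1014, 743 and 763 CPM in their comparators. The lowest Scara5/Papln value lay above the highest comparator. The fitted log2 fold change was 1.02 ± 0.38 (SD of the 3 within-library ratios), or 2.03-fold, with an edgeR adjusted p of 1.17e-05. Basal-gated cells had 32.2 to 71.9 CPM and hormone-responsive-gated cells 24.7 to 77.9 CPM. At 2000 UMIs per cell, Ltf was detected in 54.8%, 66.3% and 57.7% of Scara5/Papln cells and in 39.2%, 35.1% and 40.4% of comparators.

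Genes of the extracellular matrix and basement membrane adhesion were among those that rose. Prelp (chromosome 1, 133910304 to 133921414, minus strand), a leucine-rich proteoglycan that anchors basement membranes, stood at 309, 242 and 121 CPM against 190.4, 52.1 and 70.5 CPM. The highest comparator, that of library 1, exceeded the lowest Scara5/Papln value, so the groups overlapped although each library rose. The log2 fold change was 1.04 ± 0.85 with an edgeR adjusted p of 0.00369, and the ratio was largest in library 2. Basal-gated cells held more Prelp, 238 to 424 CPM. Bcam, a laminin receptor, stood at 101, 118 and 105 CPM against 73.1, 67.5 and 66.0 CPM, without overlap (0.59 ± 0.17, edgeR adjusted p = 0.0148). Basal-gated cells again held more, 247 to 289.6 CPM. Ltbp1, which binds latent TGF-beta in the matrix, stood at 60.7, 69.3 and 81.8 CPM against 43.0, 53.9 and 43.5 CPM, also without overlap (0.60 ± 0.28, edgeR adjusted p = 0.0335). Bcam passed in 9 and Ltbp1 in 7 of 16 other settings, and neither passed in DESeq2 or without library 1 or library 3.

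Snorc, a transmembrane proteoglycan gene listed as 3110079O15Rik in the tables, stood at 97.9, 89.5 and 32.2 CPM against 48.3, 29.1 and 23.5 CPM, with a log2 fold change of 1.01 ± 0.58 (edgeR adjusted p = 0.000437). Levels in other classes were low, with at most 1.95 CPM in basal-gated and 2.92 CPM in hormone-responsive-gated cells, and its groups overlapped through library 3.

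Genes of a processing enzyme and of 3 secreted proteins were also among the 14 higher genes. Cpe (chromosome 8, 64592542 to 64693054, minus strand), a carboxypeptidase of prohormone processing, stood at 108, 98.1 and 89.8 CPM against 71.2, 40.4 and 36.1 CPM. Every Scara5/Papln value lay above every comparator (0.89 ± 0.40, edgeR adjusted p = 0.00168), and basal-gated and hormone-responsive-gated cells had at most 12.1 CPM. Gas6, a ligand of the TAM receptor kinases, stood at 609, 629 and 457 CPM against 514, 308 and 298 CPM, with overlap through the library 1 comparator (0.60 ± 0.39, edgeR adjusted p = 0.0148). Ntn1, which encodes the guidance cue netrin-1, averaged 169 ± 36.4 CPM against 105 ± 41.3 CPM (log2 fold change 0.63 ± 0.40). Lgals3, which encodes the glycan-binding galectin-3, stood at 97.5, 150.1 and 241 CPM against 63.5, 71.1 and 133 CPM (0.80 ± 0.23, edgeR adjusted p = 0.000437). Both classes had their highest Lgals3 in library 3.

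The remaining genes that rose encode surface and cytoplasmic proteins. S100a6, a calcium-binding protein, stood at 328, 395 and 382 CPM against 206, 221 and 192 CPM. The groups did not overlap, and the SD of the ratio was among the smallest (0.82 ± 0.16, edgeR adjusted p = 8.06e-05). Hormone-responsive-gated cells held far more S100a6, 3098 to 4645 CPM. Mme, the surface metallopeptidase neprilysin (CD10), stood at 101, 107 and 56.4 CPM against 64.9, 40.4 and 40.5 CPM (0.72 ± 0.49, edgeR adjusted p = 0.0111), with 122 to 276 CPM in basal-gated cells. Slc5a8, a sodium-coupled monocarboxylate transporter, and Alcam, an adhesion molecule, had log2 fold changes of 0.67 ± 0.33 and 0.60 ± 0.11. Each of them passed in 10 of 16 other settings, and hormone-responsive-gated cells held more Alcam, 191 to 385 CPM. Ahnak, a large scaffold protein, stood at 564, 543 and 584 CPM against 438, 272 and 418 CPM, without overlap (0.58 ± 0.33).

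In all, 6 of the 14 higher genes (S100a6, Bcam, Cpe, Ltf, Ltbp1 and Ahnak) and 1 of the 8 lower genes (Mcm6) had groups that did not overlap. Over all genes tested, 345 (2.95%) had all 3 Scara5/Papln sums above all 3 comparators and 440 (3.76%) had them below. The largest of the 3 library ratios was that of library 2 for 19 of the 22 genes, and the smallest that of library 1 for 12. In 10 of the 14 higher genes, the comparators of library 1 had the highest level among the comparators.

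**Figure D3:**
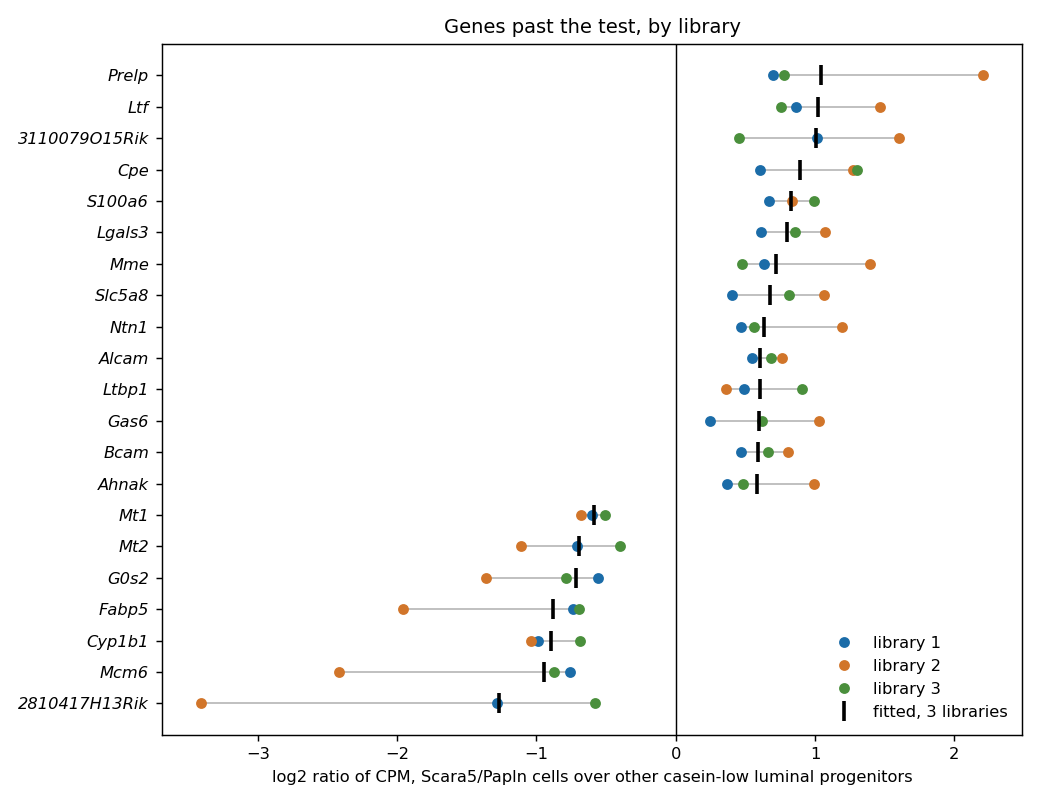
Log2 ratio of CPM in Scara5/Papln cells over other casein-low luminal progenitors (x axis) for 21 of the 22 genes past the test (y axis). Coloured points are the 3 libraries and black bars the fitted value. All points of a gene lie on 1 side of 0. Library 2 lies farthest out for most genes, as for Prelp at 2.21 and Mcm6 at -2.41, the latter from 4 UMIs in Scara5/Papln cells.

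Replication genes were among those that fell. Mcm6 (chromosome 1, 128331590 to 128359664, minus strand), a subunit of the replicative helicase, stood at 23.1, 11.5 and 15.0 CPM in Scara5/Papln cells against 39.4, 63.6 and 27.9 CPM. All Scara5/Papln values lay below all comparators, and the fitted log2 fold change was -0.94 ± 0.92 (edgeR adjusted p = 0.0148). Pclaf, listed as 2810417H13Rik, encodes a protein that binds the replication clamp. It stood at 5.87, 2.89 and 16.1 CPM against 14.9, 35.2 and 24.3 CPM (-1.27 ± 1.47, edgeR adjusted p = 0.0412). The library 2 values of Scara5/Papln cells rest on 1 UMI of Pclaf and 4 UMIs of Mcm6. For this gene the groups overlapped by library 3 of the Scara5/Papln cells and library 1 of the comparators. Without library 1, neither gene passed the test, and 9 of the 22 genes did not (also 3110079O15Rik, Mme, Alcam, Ltbp1, Bcam, Cyp1b1 and G0s2), each with the same direction. Without library 2, Ntn1, Gas6 and Ahnak were among 4 that did not pass, and without library 3, Slc5a8, Alcam, Ltbp1, Gas6 and Bcam did not. DESeq2 did not call Mme, Slc5a8, Alcam, Ltbp1 and Bcam, and it gave no adjusted p for Mcm6 and Pclaf.

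Of 30 S-phase genes tested, 1 fell (Mcm6) and none rose, with a median log2 fold change of -0.43. In all 3 libraries 20 of 30 were lower, beside 18.4% of all genes tested. Uhrf1, which maintains DNA methylation at replication, stood at 7.30 ± 4.32 against 25.3 ± 17.3 CPM and did not pass (edgeR adjusted p = 0.0665). The clamp gene Pcna stood at 41.0 ± 17.1 against 65.7 ± 13.2 CPM (adjusted p = 0.161). The summed level of the list was 585, 425 and 514 CPM in Scara5/Papln cells against 751, 998 and 553 CPM, so the gap was widest in library 2 and small in library 3. Of 30 G2 and M phase genes, 0 were called by edgeR and by DESeq2, 7 had an unadjusted edgeR p below 0.05, and the median was -0.40. At 2000 UMIs per cell, Top2a or Mki67 was detected in 1.04%, 0% (0 of 80 cells, which allows a share of up to 3.75%, taken as 3 counts) and 7.14% of Scara5/Papln cells against 2.70%, 5.69% and 6.52%. The libraries thus did not share a direction in this share, since library 3 was the higher one in Scara5/Papln cells.

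The S-phase difference was larger against comparators with the same UMI totals. Other casein-low cells were drawn to match the totals (376, 344 and 282 cells with medians of 3536, 2809.5 and 4306 UMIs). Against them 115 of 9427 genes passed (1.22%), 64 higher (0.679%) and 51 lower (0.541%), with all of the 22 genes above among them. Of 27 S-phase genes tested, 14 fell and none rose, with a median log2 fold change of -0.86 beside 0.00 (0.00211) for all genes tested. Mcm6 stood at 16.7 ± 5.81 against 52.6 ± 20.4 CPM (-1.67 ± 0.21, edgeR adjusted p = 1.13e-05). Uhrf1 stood at 7.38 ± 4.35 against 30.9 ± 10.6 CPM (-2.23 ± 0.78, adjusted p = 7.25e-05), and the chromatin remodeller Hells at 7.79 ± 5.27 against 24.3 ± 14.2 CPM (-1.58 ± 0.30, adjusted p = 0.000675). A second draw of matched comparators, added after the first was seen, called 85 genes, of which 64 were shared, and 10 S-phase genes, of which 9 were shared. In the other settings tried, 0 to 6 S-phase genes fell and none rose. Of 17 G2 and M phase genes tested against the first draw, 1 fell (Top2a, at 12.0 ± 12.2 against 23.8 ± 16.3 CPM), and the second draw called 0.

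Genes of lipid handling, a cytochrome P450 and metallothioneins also fell. Cyp1b1, a cytochrome P450 that oxidises oestrogens and retinoids, stood at 27.7, 77.9 and 86.4 CPM against 55.5, 161 and 139.6 CPM. Levels overlapped between libraries, because both classes of library 1 were low, while the within-library ratios were close together (-0.90 ± 0.19, edgeR adjusted p = 0.000437). Fabp5, a fatty acid carrier, stood at 40.1, 34.6 and 73.7 CPM against 67.2, 136 and 119.8 CPM (-0.88 ± 0.72, edgeR adjusted p = 0.00369). G0s2, an inhibitor of triglyceride breakdown, had a log2 fold change of -0.72 ± 0.41.

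The metallothionein genes Mt1 and Mt2, whose proteins bind zinc and copper, are close paralogs on chromosome 8. Mt1 stood at 423, 915 and 1985 CPM against 641, 1464 and 2817 CPM. Both classes were lowest in library 1 and highest in library 3, by more than the classes differed from each other, and the within-library ratio was steady (-0.59 ± 0.09, edgeR adjusted p = 0.000408). Mt2 stood at 169, 271 and 933 CPM against 276, 588 and 1233 CPM (-0.69 ± 0.36, edgeR adjusted p = 0.00176). They were the only 2 of 13 glucocorticoid-induced genes that passed, and the list's median was -0.07. Against comparators matched in UMI totals, Zbtb16 of this list rose in both draws. Its log2 fold change was 0.80 ± 1.16 in the first (edgeR adjusted p = 0.0249) and 0.76 in the second (edgeR adjusted p = 0.0141). Basal-gated and casein-rich cells of libraries 2 and 3 had more Mt1 than either progenitor class.

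Levels of some of the genes that passed the test followed the number of the 5 genes detected. Mean Ltf was 650.3 CPM in cells with none, 1177 with 1, 1591 with 2 and 2213 with 3 or more. Cpe went from 39.4 to 65.5, 93.2 and 116 CPM over the same steps, and Prelp from 83.5 to 134, 205 and 267 CPM. Of the falling genes, Fabp5 had the reverse order at 121, 79.4, 57.1 and 22.3 CPM, and so did Cyp1b1 at 131, 92.1, 71.6 and 39.8 CPM. Cells with 1 of the 5 genes, which count as comparators, therefore stood between the classes for these genes. Other genes turned at the step from 2 to 3 or more. Among them, mean Slc5a8 dropped from 103 to 68.1 CPM and Ltbp1 from 72.2 to 70.4 CPM. G0s2 rose from 66.3 to 70.4 CPM, and Mcm6 of library 3 from 13.5 to 21.1 CPM. The classes with 2 and with 3 or more are themselves Scara5/Papln cells, so this is a description without a test, and depth differs between the steps.

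**Figure D4:**
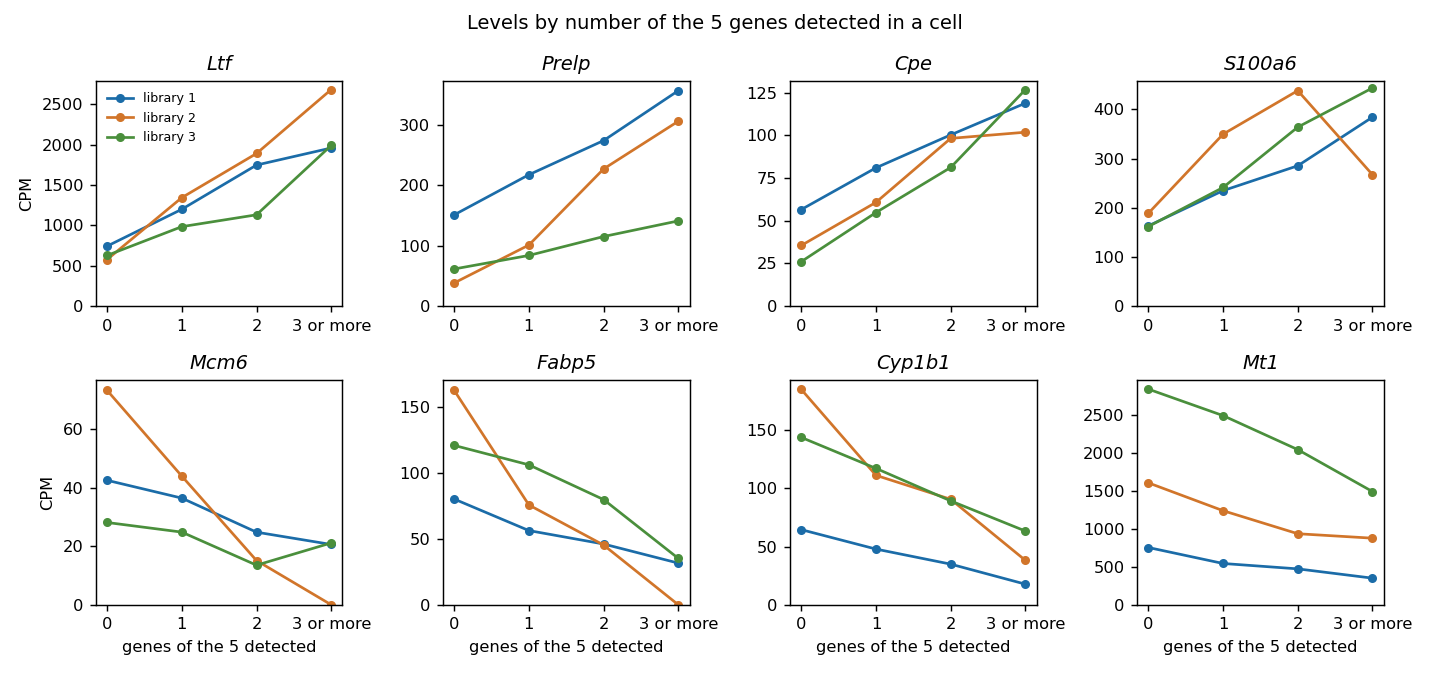
Levels (y axis, CPM, UMIs per 1000000 of the class) of 8 genes past the test in casein-low progenitors with 0, 1, 2, or 3 or more of the 5 genes detected (x axis), by library. Ltf, Prelp and Cpe rise at each step in every library, while S100a6 in library 2 drops at the last step; Fabp5, Cyp1b1 and Mt1 fall at each step in every library.

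Casein and gate genes are given as descriptions. Csn2 stood at 49.97, 1129 and 2158 CPM in Scara5/Papln cells against 206, 4015 and 2308 CPM in comparators, with the classes close only in library 3. Csn1s1 stood at 118, 1507 and 2926 CPM against 276, 4139 and 3733 CPM. Kit stood at 339, 471 and 301 CPM against 291, 289.9 and 247 CPM, and Aldh1a3, an aldehyde dehydrogenase, at 64.9, 214 and 112 CPM against 52.2, 90.7 and 77.6 CPM. Elf5 was the lower one in every library, at 509.8, 389.7 and 543 CPM against 557, 533 and 579.7 CPM. Levels of the basal gate gene Acta2 were close, at 114 ± 64.5 and 115 ± 58.6 CPM.

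Few listed genes of the lineages passed the test. Of 21 luminal progenitor genes tested, 1 rose (Ltf) and none fell, with a median log2 fold change of 0.22. Against the comparators matched in UMI totals, 4 of 19 rose and none fell. These were Ltf and the tetraspanin gene Tspan8 (205 ± 39.5 against 135 ± 44.4 CPM), which passed in both draws, and Gabrp, a GABA receptor subunit, and Lurap1l, which passed in the first alone. Mfge8, a milk fat globule protein, stood at 4195 ± 425 against 3203 ± 615 CPM in all other casein-low progenitors. In that comparison it did not pass (edgeR adjusted p = 0.0972). Against matched comparators, the log2 fold change of Mfge8 was 0.404 in the first draw (edgeR adjusted p = 0.000719). In the second draw it was 0.427 (edgeR adjusted p = 0.00204). Mfge8 was not called in either draw, because its change stayed below the fold minimum of the test. Of 21 hormone-responsive genes tested against all other casein-low progenitors, 2 rose (S100a6 and Gas6), with a median of 0.15. Gas6 was low in hormone-responsive-gated cells, at 49.8 ± 6.11 CPM, beside 336 ± 55.1 CPM in basal-gated cells. In the same comparison 0 of 20 basal genes were called by edgeR, with a median of -0.05 and 3 at an unadjusted p below 0.05. DESeq2 also called 0 basal genes. Against matched comparators, 0 of 16 basal genes passed in the first draw. Oxtr, the oxytocin receptor gene, rose in the second draw (0.70, edgeR adjusted p = 0.0453) and did not pass in the first (0.54, adjusted p = 0.113). Basal-gated cells had 385 ± 44.9 CPM of Oxtr, against 88.9 ± 57.9 CPM in Scara5/Papln cells.

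Functional lists tied to the 5 genes gave few calls. The background for the unadjusted counts of every list is 867 of 11699 genes with an unadjusted edgeR p below 0.05. Iron handling, the process of Scara5 and Ltf, had 22 genes tested and 1 that rose, Ltf, with a median of -0.11. The papilin-like secreted metalloprotease family had 0 of 17 called by edgeR and by DESeq2 (4 at an unadjusted p below 0.05), with a median of 0.36 and Timp2 at 180.0 ± 27.2 against 136 ± 12.4 CPM. Basement membrane and matrix genes had 0 of 25 called (7 unadjusted), with a median of 0.23. Mucin-type O-glycosylation had 0 of 16 (2 unadjusted) and the fucosyltransferases 0 of 8 (0 unadjusted), with medians of 0.05 and 0.00 (0.00259). The TGF-beta and BMP pathway had 25 tested and Ltbp1 as the gene that rose, with a median of -0.01. Innate defence genes had 14 tested and Ltf as the gene that rose, while the median was -0.29.

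Lists of inflammation, antigen presentation and cell contact were also measured. The inflammatory chemokines and NF-kB targets had 0 of 16 called by edgeR and by DESeq2, with a median of -0.10 and 6 at an unadjusted p below 0.05. MHC class I presentation had 0 of 14 genes called, with a median of -0.26. In all 3 libraries 8 of 14 were lower, beside 18.4% of all genes tested. The connexins and Rspo1 had 0 of 5 called and a median of -0.61. Rspo1, a Wnt agonist, had a log2 fold change of -0.70 ± 1.85. It stood at 51.4, 26.0 and 112 CPM against 74.8, 271 and 103 CPM. Rspo1 was thus lower in libraries 1 and 2 and slightly higher in library 3, with log2 ratios of -0.54, -3.36 and 0.12. With cells thinned to equal depth, it was detected in 5.76%, 6.25% and 20.8% of Scara5/Papln cells against 10.4%, 30.6% and 15.4% of comparators. Against comparators matched in UMI totals, Rspo1 passed in the second draw alone (-0.89, edgeR adjusted p = 0.0284, beside -0.86 and 0.0801 in the first). The connexin gene Gjb2 fell in both draws.

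Against all other casein-low progenitors, no gene was called by edgeR or DESeq2 in several lists of the secretory and stress states. Of the milk proteins outside the rule 0 of 12 passed (2 at an unadjusted edgeR p below 0.05), with a median log2 fold change of 0.10, and the iron carrier Trf stood at 6861 ± 2355 against 5659.8 ± 1582 CPM, higher in library 2 and slightly lower in libraries 1 and 3. Fatty acid and triglyceride synthesis had 0 of 19 called (6 unadjusted) and a median of -0.17. Against matched comparators 1 gene of this list fell in each draw, the desaturase gene Scd2 in the first (-0.80, edgeR adjusted p = 0.0397) and Thrsp, a regulator of lipid synthesis, in the second (-1.17, adjusted p = 0.0117). Immediate-early and dissociation genes had 0 of 19 (3 unadjusted) and a median of 0.08, and heat shock genes 0 of 12 (5 unadjusted) and a median of -0.05. Notch receptors, ligands and targets had 0 of 17 (3 unadjusted) and a median of -0.07, and the Notch target Hes1 stood at 948 ± 106 against 791 ± 12.5 CPM, higher in all 3 libraries without passing (edgeR adjusted p = 0.358).

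**Figure D5:**
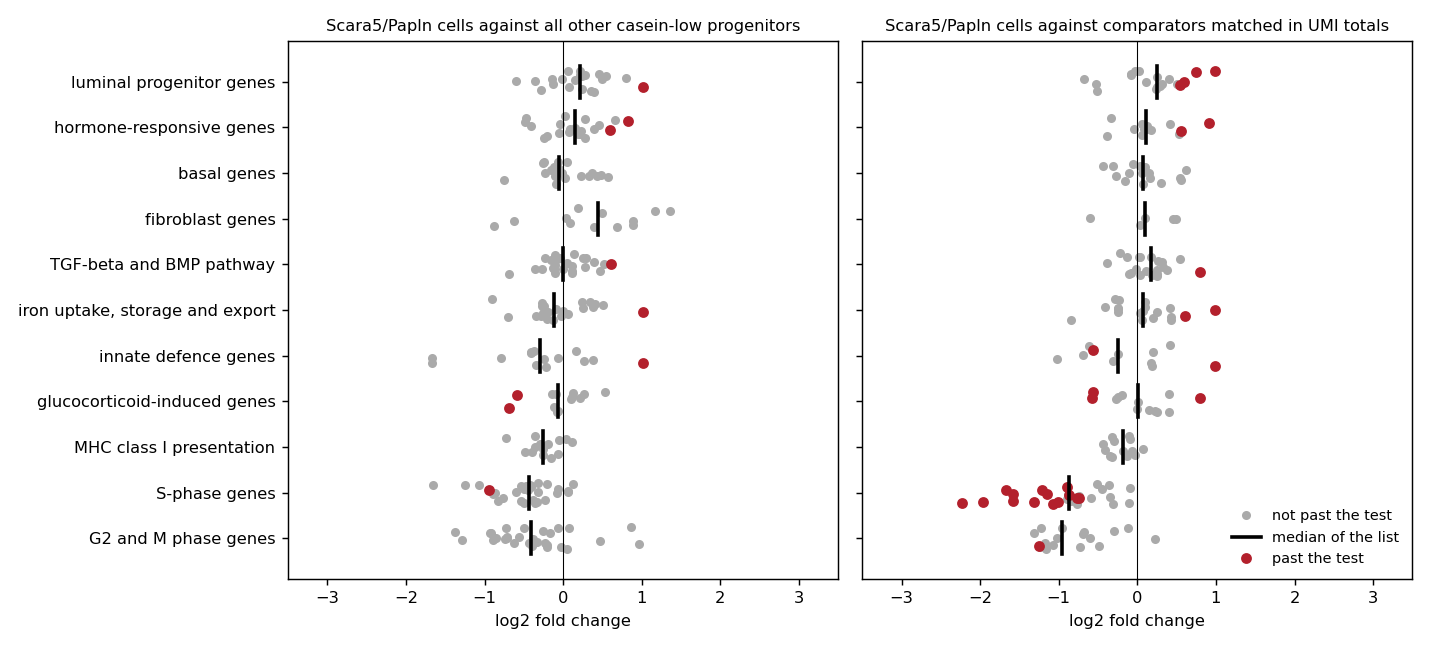
Log2 fold change (x axis) of each tested gene of 11 gene lists (y axis) in Scara5/Papln cells against all other casein-low progenitors (left) and against comparators matched in UMI totals (right). Red points passed the test and black bars are list medians; the S-phase list lies left of 0, with a median of -0.43 on the left and -0.86 on the right.

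Markers of skin keratinocytes, pericytes, fibroblasts, immune and endothelial cells were also summed. Skin keratinocyte genes gave 51.7, 69.9 and 102 CPM against 58.3, 109 and 117 CPM in comparators, with 0 of 2 tested genes called. The 8 pericyte genes summed to 101, 93.2 and 129 CPM against 83.6, 81.3 and 94.1 CPM in comparators. Notch3 stood at 100 ± 7.93 against 84.9 ± 8.17 CPM and did not pass (edgeR adjusted p = 0.589). Hormone-responsive-gated cells had 69.9 to 106 CPM of Notch3 and basal-gated cells 8.61 to 14.7 CPM. Scara5 is also known from fibroblasts, so their genes were summed: 16 listed fibroblast genes gave 58.0, 114 and 211 CPM in Scara5/Papln cells against 62.2, 98.6 and 134 CPM in comparators. None of 12 tested was called by edgeR or DESeq2 (4 at an unadjusted p below 0.05), and the median was 0.45. In the other settings 0 were called as well, with medians from -0.31 to 0.67 over 5 to 16 tested genes, among them -0.18 over 8 genes without the cells of the highest doublet scores. Cells with a UMI of Col1a1, Col1a2 or Col3a1, the main fibrillar collagens, were 0.334%, 4.50% and 4.42% of Scara5/Papln cells against 0.396%, 6.08% and 2.95% of comparators. The decorin gene Dcn stood at 14.5 ± 13.8 CPM against 8.24 ± 6.85 CPM in comparators, with 175 ± 91.7 CPM in basal-gated and 164 ± 15.2 CPM in hormone-responsive-gated cells. Gsn of the same list stood at 50.4 ± 28.4 against 31.3 ± 10.3 CPM in comparators, higher in all 3 libraries without passing (edgeR adjusted p = 0.344). The growth factor receptor gene Pdgfra was the 1 of 16 that lay above both other gates in every library, at 11.2 ± 4.19 CPM against 3.72 ± 0.908 and 1.04 ± 1.37 CPM, beside 8.79 ± 5.69 CPM in comparators. Summed immune genes reached 3.23, 8.74 and 45.4 CPM against 4.64, 13.8 and 46.2 CPM, and summed endothelial genes 11.9, 14.6 and 11.3 CPM against 15.1, 12.6 and 18.8 CPM, with 2 of 12 (Cdh5 and Kdr) at 0 in Scara5/Papln cells. The part of RNA from other cells in the results was not tested. Among the highest doublet scores were 64, 0 and 4 Scara5/Papln cells, or 5.35%, 0% and 2.21%, and 3.46%, 0.617% and 2.45% of comparators.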

How the data were processed

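Droplet-based 10x Genomics 3' v2 libraries of sorted mammary epithelial cells were analysed. The authors deposited 1 table of raw UMI counts per library, not normalized, with 19050 gene symbols. The submitters' processing notes name Cell Ranger 2.1.0 and mm10 as the build; sources used here do not name the annotation or the calling of cells. The members and gene lists were chosen with earlier results of these data known, so list counts are descriptions.

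UMIs of Scara5/Papln cells and of other casein-low luminal progenitors were summed per library (343347 to 9270600 UMIs, the smallest being Scara5/Papln cells of library 2, which limits precision for low genes). The sums were tested with edgeR 4.0.16 (R 4.3.3), quasi-likelihood, two-sided, with TMM factors, filterByExpr and the library as a block. Levels of tested genes are TMM-normalised CPM; class levels, list sums and the 5 genes of the rule are scaled by total UMIs. Within-library log2 ratios use a prior count of 2. The script was tested on simulated data.

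The library pairs the classes by construction, since both come from 1 suspension; deviations from the class means correlated across genes at 0.674, 0.141 and 0.536 within libraries and at most at 0.156 between them. Named genes were those called with 1 sign in 3 libraries and at least 20 CPM, up to 14 per direction, and per list the 2 called genes with the largest change or the highest member. Genes chosen after their values were seen are Uhrf1, Hells, Pcna, Mcm5, Pdgfra, Tspan8, Gabrp, Lurap1l, Scd2, Thrsp, Zbtb16, Top2a, Mki67, Mfge8, Dcn and the lineage markers. Doublets were scored with Scrublet (scanpy 1.11.5), 0.8% per 1000 barcodes, and kept in the main analysis. Of 49 lists, 9 gene symbols were not in the tables. Gene positions are from GENCODE M21. For 1 of the genes that passed the test, and the list it belongs to, values are not reported here.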

Additional observations from a re-analysis of the deposited data

How the results depend on the processing

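The 22 genes kept their direction in every setting. The number called was 64 against all other luminal progenitors, 115 against comparators matched in UMI totals, 85 in a second matched draw, 34 without the highest doublet scores, 76 for 3 or more against none of the 5 genes, 55 with the rule read on thinned counts and 97 with a filter at 10 UMIs. It was 4 with sums thinned to equal totals and 4 at a log2 fold change of 1 or more in size. It was 30 under 5% mitochondrial UMIs, 26 against cells with none of the 5 genes, 22 with relative log expression factors, 24 without a fold minimum and 16 with DESeq2 1.42.0. The last comparator and the second draw were chosen after seeing the data. The cause of these changes was not tested. The setting with equal totals had fewer UMIs and 8679 genes tested. Leaving out 1 library gave 25 to 44 genes, with 13 of the 22 shared without library 1, 18 without library 2 and 17 without library 3.

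Without the replicate block, 0 genes were called by edgeR (178 at an unadjusted p below 0.05), since the libraries then enter the spread; DESeq2 with the block called 16. Ltf, S100a6 and Mt1 passed in every other setting at the fold minimum of 0.5.

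The mean share of luminal progenitors was 9.18% with cells thinned, 5.202% for at least 3 of 5 genes, and 6.24% to 22.01% on leaving out 1 library, each within 1 SD of 16.5% because library 1 sets that SD. Depth limits Scara5/Papln sums of library 2 most.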

Other observations

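Against comparators matched in UMI totals, genes beyond the 22 passed in both draws. These genes were named after their values were seen. Higher in Scara5/Papln cells were Cst3, the secreted protease inhibitor cystatin C, at 3127 ± 1876 against 1940 ± 1611 CPM (log2 fold change 0.77 ± 0.56, SD over 3 libraries), and Lrg1, a secreted leucine-rich glycoprotein, at 282 ± 111 against 162 ± 35.7 CPM (0.74 ± 0.29). Cd200, a surface immunoglobulin-family protein, stood at 183 ± 73.7 against 109.7 ± 40.6 CPM (0.72 ± 0.11). Txnip, which binds thioredoxin, stood at 1623 ± 962 against 1111 ± 779 CPM (0.58 ± 0.21), and Steap4, a metalloreductase of iron and copper, at 81.8 ± 11.5 against 51.7 ± 8.96 CPM (0.61 ± 0.19). Scnn1a, a subunit of the epithelial sodium channel, had a log2 fold change of 0.94 ± 0.14, and Igf1r, the receptor of insulin-like growth factor, one of 0.53 ± 0.34.

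Genes lower in both draws are given by 5 examples. The histone variant H2afz stood at 212 ± 47.9 against 353 ± 68.3 CPM (-0.73 ± 0.07), Hmgb2 at 123 ± 43.2 against 204 ± 44.6 CPM (-0.68 ± 0.24), and Stmn1, a microtubule regulator, at 82.1 ± 51.9 against 141 ± 28.2 CPM (-0.96 ± 0.60). Psat1, an enzyme of serine synthesis, fell by 0.99 on the log2 scale (32.1 ± 12.7 against 62.0 ± 7.15 CPM), and the connexin gene Gjb2 fell by 0.75 (43.3 ± 11.8 against 84.0 ± 41.4 CPM). Each of these 12 genes had 1 direction in 3 libraries and an edgeR adjusted p below 0.05.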
